A study of Mus musculus with 9 samples.

Results

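Small heat shock proteins and their co-chaperone Bag3 were described in BV2 cells, an immortalized mouse microglial line, as 7 genes (Hspb7, Hspb1, Hspb6, Hspb8, Hspb11, Cryab and Bag3) of the 55906 genes in the deposited expression table. The genes were taken by symbol. Hspb7 was chosen by its measured TPM in these libraries, because it was lower in LPS+Pilo than in LPS and lower in LPS than in Control, and the others by family or partnership. RNA sequencing covered 3 libraries of cells given LPS with Pilo (LPS+Pilo), 3 of cells given lipopolysaccharide alone (LPS) and 3 of untreated cells (Control), all labelled wildtype. LPS is the bacterial cell wall component that activates microglia. The labels do not spell out Pilo, the series title names the M3 muscarinic receptor, and doses and times are not stated in the labels. BV2 is 1 cell line. The labels call the replicates biological (biol rep) but do not say whether they came from separate cultures. The p-values set differences against the spread between these libraries.

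Small heat shock proteins hold unfolding proteins in a soluble state without using ATP, and they share a conserved alpha-crystallin domain. Other chaperones refold the bound proteins, or Bag3 passes them on to autophagy. Many genes of this system are switched on by heat shock factors, which bind inverted GAA repeats called heat shock elements. Hspb7 is best known from heart and skeletal muscle, where its protein binds the actin cross-linker filamin C.

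Promoter sequences of the members are shown as background, and whether they bear on the levels that follow was not tested. RefSeq promoters on build GRCm38.p6, from 250 bases before to 50 bases after the annotated start, were matched for 6 of the 7 genes, Hspb6 with a pair of starts. The heat shock element core was searched on both strands as GAANNTTC and as TTCNNGAA, a choice made with the sequences in view. Of 32851 mouse promoters of this length, 7.86% held GAANNTTC and 8.52% held TTCNNGAA. Either arrangement stood in 15.1% of them. The same 8 bases, GAAGTTTC, stood in the promoters of Hspb1, Hspb6, Hspb8 and Bag3, and in 1.21% of all promoters on either strand. These 8 bases were picked from the matches in these genes, so the 1.21% is no fair background for them. In the windows of 30 bases below, read 5′ to 3′ on each gene's own strand, capitals mark the match. The second match in Hspb1 reads GAACCTTC.
Hspb1, chr5:135887791-135887820, plus strand: cttcaacaagaGAAGTTTCcagatgggggc
Hspb1, chr5:135887811-135887840, plus strand: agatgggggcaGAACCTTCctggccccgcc
Hspb6, chr7:30553170-30553199, plus strand: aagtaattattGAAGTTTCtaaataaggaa
Hspb8, chr5:116422844-116422873, minus strand: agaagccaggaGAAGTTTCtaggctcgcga
Bag3, chr7:128523603-128523632, plus strand: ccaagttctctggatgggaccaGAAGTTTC

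Counted from the annotated start, where the first transcribed base is 1 and the base before it -1, the matches began at -117 and -97 in Hspb1, -120 in the second of the Hspb6 promoters, 3 in Hspb8 and 43 in Bag3. Hspb7, Hspb11 and the other Hspb6 promoter held neither arrangement in this window. Searches on both strands for an AP-1 site (TGANTCA, in 7.81% of promoters), an NF-kB core (in 1.63%) and a TATA box (TATAAA, in 13.6%) also found no match in Hspb7. Of these 3 motifs, Bag3 held an AP-1 site beginning at -20 and the second Hspb6 promoter a TATA box beginning at -29. The 250 bases before the Hspb7 start therefore carry no capitals.
Hspb7, chr4:141420529-141420778, plus strand: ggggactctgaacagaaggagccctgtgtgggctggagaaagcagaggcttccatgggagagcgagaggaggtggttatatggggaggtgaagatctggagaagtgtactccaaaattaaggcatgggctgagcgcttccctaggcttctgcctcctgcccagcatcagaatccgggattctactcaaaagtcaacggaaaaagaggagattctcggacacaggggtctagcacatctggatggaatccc

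Levels are TPM as the authors deposited them, a share of each library's transcripts that is corrected for length and sums to the same total in every library. Genes that reached 1 TPM in 3 or more libraries were tested. This kept 11260 genes, among them Hspb7, Hspb6, Hspb11 and Bag3. Fold changes are differences of log2(TPM + 1) with the standard error (SE) of a limma fit over all 9 libraries, and genes with a Benjamini-Hochberg adjusted p under 0.05 were called. Between 10726 and 11123 genes reached 1 TPM per library, and the sequencing depth is unknown. Of 5 inflammatory genes listed as a check of the LPS treatment (Tnf, Il6, Nos2, Ccl2 and Lcn2) 5 were called higher in LPS than in Control. Between LPS+Pilo and LPS 0 of them were called. Ccl2 was lower there without overlap, as for 6.63% of tested genes (-0.68 ± 0.12, limma adjusted p = 0.212). For LPS with Control 7.76% of tested genes were called, 4.12% higher and 3.64% lower, a split of 464 to 410. That split was 518 to 871 when each library was centred on its median and 614 to 902 after quantile normalization. Between LPS+Pilo and LPS 0.0444% were called, 0.00888% higher and 0.0355% lower. Between LPS+Pilo and Control 10.2% were called, 4.85% higher and 5.3% lower. The median log2 level of tested genes lay 0.117 higher in LPS than in Control, 0.0833 lower in LPS+Pilo than in LPS and 0.034 higher in LPS+Pilo than in Control.

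Hspb7 had the highest level of the small heat shock protein genes in every library, and that level was lowest in LPS+Pilo and highest in Control. It had 47.87, 44.14 and 48.99 TPM in LPS+Pilo, 79.73, 80.83 and 95.70 TPM in LPS and 195.67, 224.20 and 188.98 TPM in Control. The highest LPS+Pilo library was below the lowest LPS library, and the highest LPS library was below the lowest Control library. The means were 47.0 ± 2.54 TPM in LPS+Pilo, 85.4 ± 8.92 TPM in LPS and 203 ± 18.7 TPM in Control (SD, n = 3 each). The LPS+Pilo mean was 55.0% of the LPS mean, the LPS mean 42.1% of the Control mean and the LPS+Pilo mean 23.2% of the Control mean. By mean level Hspb7 ranked 2529 of the 11260 tested genes in LPS+Pilo, 1611 in LPS and 756 in Control.

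These are the values for which Hspb7 was chosen, so its differences are a description and carry no test. Its log2 fold change was -0.84 ± 0.10 (SE) for LPS+Pilo with LPS, -1.24 ± 0.10 for LPS with Control and -2.08 ± 0.10 for LPS+Pilo with Control. With each library centred on its median, they were -0.76, -1.36 and -2.12. Of all tested genes 0.702% had a lower value for LPS+Pilo with LPS, 0.497% for LPS with Control and 0.169% for LPS+Pilo with Control. The first 2 of these comparisons share the LPS libraries and the last 2 share the Control libraries.

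The choice rested on Hspb7 being lower at both steps. As a threshold for such falls, an adjusted p under 0.05 (limma) at both steps was used here. It held for 3 genes, Hspb7, the growth factor gene Igf1 and the urokinase gene Plau. Just inside it at the second step lay Plau, with a log2 fold change of -0.66 (adjusted p = 0.0481), and outside it lay the motor protein gene Myo1f, with -0.61 (adjusted p = 0.255). Hspb7 itself met the threshold for LPS with Control in 17 of 17 alternative settings and for LPS+Pilo with LPS in 4 of 17. All settings reuse the libraries in which Hspb7 was chosen, so these counts are a description and no support for its falls. The second step held with a pseudocount of 0.1, with a filter of 5 TPM, and without Control replicate 1 or 2. It was missed in the other 13 settings, among them those without any of the other 7 libraries, while its log2 fold change ranged from -0.89 to -0.76 over all 17 settings. In 1.36% of tested genes, 153 in all, every LPS+Pilo library was below every LPS library and every LPS library below every Control library.

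**Figure D1:**
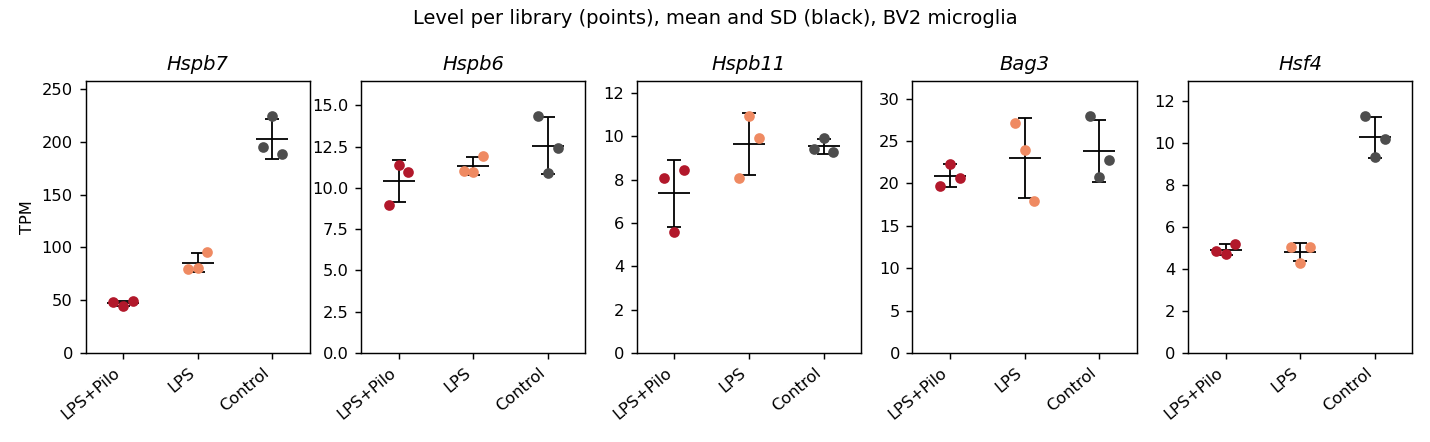
TPM (vertical axes from 0) of the measured genes Hspb7, Hspb6, Hspb11 and Bag3 and of the heat shock factor gene Hsf4 in LPS+Pilo, LPS and Control. Points are libraries, black bars the mean and SD of 3. Hspb7 separates all 3 groups, at 44.14 to 48.99, 79.73 to 95.70 and 188.98 to 224.20 TPM, and Hsf4 separates the treated groups from Control.

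The best-known stress-inducible relatives were listed at 0. Hspb1, whose product guards actin filaments in stressed cells, had 0 TPM in all 9 libraries. So had Cryab, the alpha-B crystallin gene of lens, muscle and glia, and Hspb8, whose product works in a complex with Bag3. None of these 3 genes was tested, and 62.0% of the genes in the table were listed at 0 throughout. Housekeeping genes were measured in every library, with Tbp at 6.09 to 13.16 TPM and Hprt at 73.95 to 109.69 TPM. Of 5 further family genes, Hspb2, Hspb3 and the lens gene Cryaa were listed at 0 throughout. Hspb9, a testis gene, reached at most 0.61 TPM, and Odf1, which encodes a sperm tail protein, at most 0.13 TPM.

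Hspb6, whose product is a muscle-enriched small heat shock protein that relaxes smooth muscle, was the only other family member with a tested level. It had 8.97, 11.36 and 10.96 TPM in LPS+Pilo, 11.03, 10.94 and 11.95 TPM in LPS and 14.32, 10.90 and 12.42 TPM in Control. Its groups overlapped in all 3 comparisons. The log2 fold change was -0.11 ± 0.14 for LPS+Pilo with LPS (95% interval -0.42 to 0.20, limma adjusted p = 0.916) and -0.13 ± 0.14 for LPS with Control (-0.44 to 0.18, adjusted p = 0.604). For LPS+Pilo with Control it was -0.24 ± 0.14 (-0.55 to 0.06, adjusted p = 0.323). Hspb6 overlaps Proser3 and Lin37 on the opposite strand in GENCODE M21, and since the strand setting is not given, reads of these genes cannot be told apart.

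A ratio within a library does not depend on the TPM total. The ratios and shares below reuse the Hspb7 values for which it was chosen, so their order of groups is no separate support. Hspb7 stood at 5.34, 3.89 and 4.47 times the level of Hspb6 in LPS+Pilo, at 7.23, 7.39 and 8.01 times in LPS and at 13.7, 20.6 and 15.2 times in Control, without overlap between groups. Over the 10 family genes together (the 5 above with Hspb1, Hspb6, Hspb7, Hspb8 and Cryab), the summed level was 55.7 to 60.0 TPM in LPS+Pilo, 90.8 to 107.9 TPM in LPS and 201.5 to 235.2 TPM in Control. Hspb7 made up 79.2% to 83.8% of that sum in LPS+Pilo, 87.8% to 88.7% in LPS and 92.9% to 95.3% in Control. The share of Hspb6 was 15.7% to 20.4% in LPS+Pilo, 11.1% to 12.2% in LPS and 4.63% to 6.80% in Control.

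**Figure D2:**
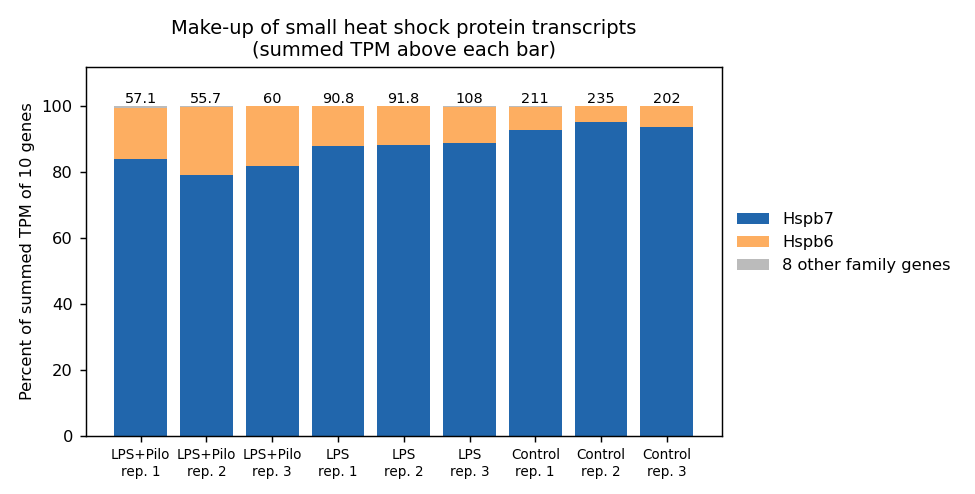
Make-up of the summed TPM of 10 small heat shock protein genes in each library (percent, vertical axis), with the sum in TPM above each bar. Hspb7 fills 79.2% to 83.8% of the bar in LPS+Pilo, 87.8% to 88.7% in LPS and 92.9% to 95.3% in Control, and Hspb6 nearly all of the rest.

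Bag3, the co-chaperone that joins small heat shock proteins to larger ATP-driven chaperones, had 19.65, 22.33 and 20.68 TPM in LPS+Pilo, 27.16, 23.97 and 17.91 TPM in LPS and 27.89, 20.80 and 22.76 TPM in Control. The LPS range held all LPS+Pilo values, and it overlapped the Control range. Its log2 fold change was -0.12 ± 0.16 for LPS+Pilo with LPS (95% interval -0.48 to 0.25, limma adjusted p = 0.926), -0.06 ± 0.16 for LPS with Control (-0.42 to 0.31, adjusted p = 0.867) and -0.17 ± 0.16 for LPS+Pilo with Control (-0.54 to 0.19, adjusted p = 0.580). Bag3 overlaps 2610306O10Rik on the same strand in GENCODE M21, so reads of these genes cannot be told apart. Of the other BAG genes Bag1, Bag2, Bag4, Bag5 and Bag6, 0 of 5 passed in any comparison (limma, also 0 at an unadjusted p under 0.05). Their log2 fold changes ran from -0.10 to 0.18. Of all tested genes 7.76% passed for LPS with Control, 0.0444% for LPS+Pilo with LPS and 10.2% for LPS+Pilo with Control. At the unadjusted p, 1384 of 11260 genes were higher and 1176 lower for LPS with Control. These counts were 342 and 419 for LPS+Pilo with LPS and 1308 and 1390 for LPS+Pilo with Control.

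Hspb11 carries the family name, but its product pairs with Ift27 in intraflagellar transport, the traffic along cilia. It had 8.09, 5.60 and 8.43 TPM in LPS+Pilo, 8.06, 10.91 and 9.94 TPM in LPS and 9.41, 9.93 and 9.27 TPM in Control. All LPS+Pilo libraries were below all Control libraries, as for 15.6% of tested genes, while LPS+Pilo and LPS overlapped. A processed pseudogene, Gm12850, overlaps it on the same strand and is listed at 0. The log2 fold change was -0.35 ± 0.17 both for LPS+Pilo with LPS (95% interval -0.73 to 0.02, limma adjusted p = 0.753) and for LPS+Pilo with Control (-0.72 to 0.03, adjusted p = 0.242), and 0.00 ± 0.17 for LPS with Control (-0.37 to 0.38, adjusted p = 0.991). Of 16 listed genes of the same transport complex 10 were tested, and 0 passed in any comparison. Of all tested genes 7.76% passed for LPS with Control, 0.0444% for LPS+Pilo with LPS and 10.2% for LPS+Pilo with Control. At an unadjusted p under 0.05 (limma) 2 transport genes were lower in LPS than in Control, against 1176 of 11260 tested genes. In LPS+Pilo 1 was higher and 1 lower than in Control, against 1308 and 1390. Between LPS+Pilo and LPS 0 differed, against 342 higher and 419 lower. Ift27 had a log2 fold change of -0.33 ± 0.09 for LPS with Control (adjusted p = 0.0605). It was called lower when libraries were median-centred (-0.45, adjusted p = 0.0351) or quantile-normalized (-0.39, adjusted p = 0.0198). Ift46, another transport gene, was called lower in the same settings (adjusted p = 0.0267 and 0.0266), and Ift52 was called lower in LPS+Pilo than in Control after quantile normalization (-0.33, adjusted p = 0.0493).

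In all, 0 of the 3 tested genes other than Hspb7 were called in any comparison (limma, also 0 at an unadjusted p under 0.05), against 7.76% of all tested genes for LPS with Control, 0.0444% for LPS+Pilo with LPS and 10.2% for LPS+Pilo with Control. At that unadjusted p, 1384 of 11260 genes were higher and 1176 lower for LPS with Control. These counts were 342 and 419 for LPS+Pilo with LPS and 1308 and 1390 for LPS+Pilo with Control. Of the 3 genes other than Hspb7, 0 were called in each of the 17 alternative settings.

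Among the heat shock factors, Hsf4 fell with LPS. Hsf4, a factor best known for crystallin genes in the lens, had 4.83, 4.73 and 5.21 TPM in LPS+Pilo, 5.04, 4.29 and 5.04 TPM in LPS and 11.26, 9.35 and 10.17 TPM in Control. Both treated groups were below every Control library, as for 13.1% of tested genes in LPS and 15.6% in LPS+Pilo, and overlapped each other. It fell by 0.96 ± 0.13 on the log2 scale for LPS with Control (SE, limma adjusted p = 0.00189) and by 0.92 ± 0.13 for LPS+Pilo with Control (adjusted p = 0.00197), with 0.03 ± 0.13 for LPS+Pilo with LPS (95% interval -0.25 to 0.32, adjusted p = 0.980). The LPS mean was 46.7% of the Control mean. For Hspb7, in contrast, every LPS+Pilo library was below every LPS library, a difference between the genes that was not tested. Both calls of Hsf4 held in 17 of 17 alternative settings.

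Hsf1, the main activator of the heat shock response, lay at 49.54 to 53.99 TPM in LPS+Pilo, 48.70 to 51.22 TPM in LPS and 50.46 to 51.71 TPM in Control. Its log2 fold change was 0.06 for LPS+Pilo with LPS (limma adjusted p = 0.918), -0.02 for LPS with Control (0.879) and 0.04 for LPS+Pilo with Control (0.821). Hsf2 (1.74 to 3.88 TPM over all libraries) and Hsbp1, an inhibitor of heat shock factors (63.79 to 92.83 TPM), did not pass in any comparison, and Hsf5, a testis factor, was listed at 0. Of the 5 factor genes 4 were tested, with 1 lower and 0 higher in each comparison with Control and 0 called for LPS+Pilo with LPS. Over all tested genes 3.64% were called lower in LPS than in Control and 5.3% in LPS+Pilo than in Control. Between LPS+Pilo and LPS 0.0444% were called.

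None of the larger chaperones passed the test. Of 21 listed heat shock chaperone genes 19 were tested and 0 passed in any comparison (limma). Of all tested genes 7.76% passed for LPS with Control, 0.0444% for LPS+Pilo with LPS and 10.2% for LPS+Pilo with Control. For LPS with Control 4 chaperones were higher and 0 lower at an unadjusted p under 0.05, against 1384 and 1176 of 11260 genes. For LPS+Pilo with LPS 0 were higher and 1 lower, against 342 and 419. For LPS+Pilo with Control 2 were higher and 1 lower, against 1308 and 1390. The median log2 fold change of the chaperones for LPS with Control was 0.30, against 0.07 over all tested genes. Between LPS+Pilo and LPS it was -0.16, against -0.05, and for LPS+Pilo with Control 0.12, against 0.02. The heat-inducible pair Hspa1a and Hspa1b, near-identical copies whose reads cannot be told apart, stayed at 0.02 TPM or less in 8 libraries. Control replicate 2 was the exception, with 0.39 and 1.79 TPM.

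Hspa8, the constitutive chaperone that works with Bag3, had 1620.99, 1355.93 and 1294.39 TPM in LPS+Pilo, 1870.56, 2011.69 and 1800.72 TPM in LPS and 2052.92, 1641.56 and 1621.60 TPM in Control. Its log2 fold change for LPS+Pilo with LPS was -0.42 ± 0.12, without overlap in 3 of 3 libraries, and did not pass (limma adjusted p = 0.502). Groups did not overlap in that direction for 6.63% of tested genes. Chordc1, a co-chaperone of the HSP90 machine, had a log2 fold change of 0.67 ± 0.20 for LPS with Control (adjusted p = 0.0806), and the inducible Hsp90aa1 one of 0.60 ± 0.17 (adjusted p = 0.0639).

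Chaperone levels also moved with single libraries. Of the 19 tested chaperone genes 18 had their highest Control value in Control replicate 1 and 18 their lowest LPS value in LPS replicate 3, against 62.6% and 66.3% of all tested genes. In LPS+Pilo, 16 of the 19 were highest in replicate 1, against 49.7% of all tested genes. Without Control replicate 1, Chordc1 (0.88, limma adjusted p = 0.0140), Hsp90aa1 (0.69, 0.0462) and Dnaja2 (0.74, 0.0306), a J-domain co-chaperone gene, were called higher in LPS. Without LPS replicate 3, Hsp90aa1 was called (0.72, adjusted p = 0.0384). With median centring, Chordc1 (0.55, 0.0316) and Hsp90aa1 (0.48, 0.0353) were called higher and the co-chaperone gene Dnajb1 lower (-0.30, adjusted p = 0.0377). Chordc1 was also called after quantile normalization (0.55, adjusted p = 0.0253). It was called higher in LPS+Pilo than in Control with median centring (0.56, adjusted p = 0.0278), with quantile normalization (0.55, 0.0234) and without Control replicate 1 (0.81, 0.0169). The part of these libraries in the chaperone values was not tested further.

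**Figure D3:**
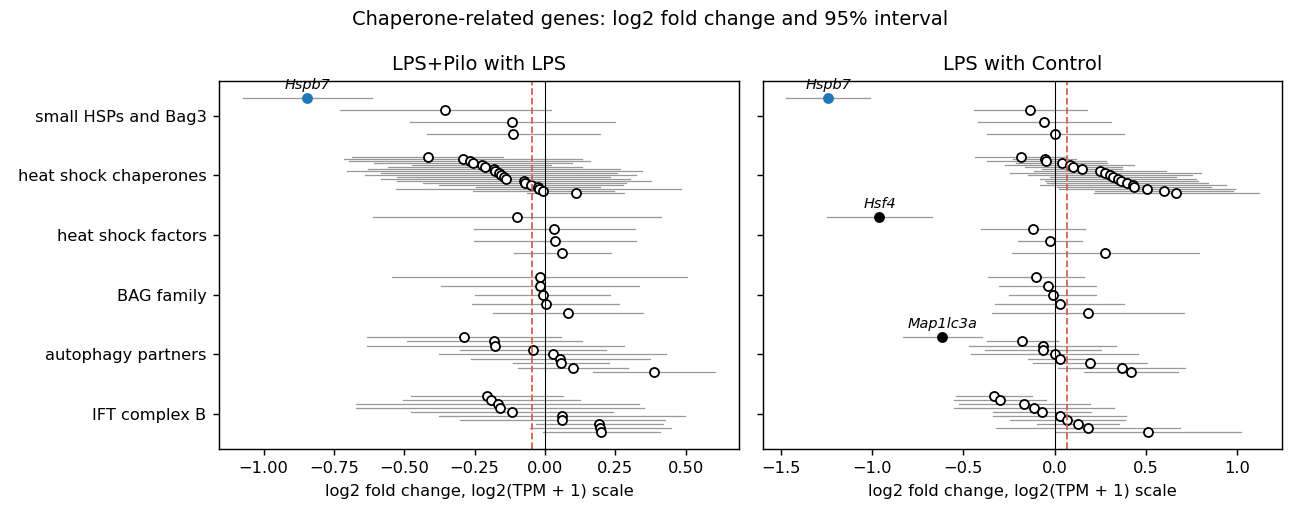
Log2 fold change on the log2(TPM + 1) scale (horizontal axis) of the tested genes in 6 groups, with 95% intervals as grey lines, for LPS+Pilo with LPS (left) and LPS with Control (right). Black points were called (limma adjusted p under 0.05), open points were not, Hspb7 in blue was not tested, and the dashed line is the median of all tested genes. Hspb7 lies at -0.84 and -1.24, and the only called genes are Hsf4 and Map1lc3a for LPS with Control.

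Among the partners of Bag3 in chaperone-assisted autophagy, Map1lc3a fell with LPS. Of 12 listed genes 9 were tested. For LPS with Control 1 was lower, 0 were higher and 8 did not pass, and 0 passed in the other comparisons (limma). Of all tested genes 3.64% were called lower and 4.12% higher for LPS with Control. For LPS+Pilo with LPS 0.0444% were called, and for LPS+Pilo with Control 10.2%. At an unadjusted p under 0.05, 2 partners (Sqstm1 and Flna) were higher and 1 lower for LPS with Control. Over all 11260 genes these counts were 1384 and 1176. For LPS+Pilo with LPS 1 partner was higher and 0 lower, against 342 and 419. For LPS+Pilo with Control 1 was higher and 1 lower, against 1308 and 1390. Map1lc3a, which encodes an autophagosome membrane protein, had 38.34, 43.54 and 42.27 TPM in LPS+Pilo, 33.65, 31.67 and 28.82 TPM in LPS and 50.27, 45.48 and 49.95 TPM in Control. It fell by 0.62 ± 0.10 for LPS with Control (SE, limma adjusted p = 0.00454), a call that held in 17 of 17 alternative settings. Between LPS+Pilo and LPS its log2 fold change was 0.39 ± 0.10 (adjusted p = 0.4), although all LPS+Pilo libraries were above all LPS libraries, as for 5.58% of tested genes. Its paralog Map1lc3b lay between 114.35 and 131.98 TPM in all libraries.

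Sqstm1, which encodes an autophagy receptor, had a log2 fold change of 0.42 ± 0.12 for LPS with Control (limma adjusted p = 0.0588) and 0.38 ± 0.12 for LPS+Pilo with Control (adjusted p = 0.0729). Every treated library was above every Control library, as for 11.2% of tested genes in LPS and 14.9% in LPS+Pilo. It was called higher in LPS without Control replicate 1 (adjusted p = 0.0403), without LPS replicate 3 (0.0275) or with a replicate block (0.0286). Against Control, LPS+Pilo was called higher without LPS replicate 1 (0.0295), without LPS replicate 3 (0.0475), with a replicate block (0.0335) or with only the 2 groups compared (0.0409). Filamin C, the muscle partner of the Hspb7 protein, was scarcely present as transcript, with Flnc at 0.13 to 0.31 TPM. The filamin of most cells, Flna, lay at 175.51 to 178.35 TPM in LPS+Pilo, 174.49 to 264.66 TPM in LPS and 142.45 to 196.29 TPM in Control and did not pass.

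Genes near Hspb7 on chromosome 4 included some listed at 0 and some measured in every library. Among the nearest protein-coding genes in the RefSeq table for GRCm38.p6, Fam131c and Srarp were listed at 0 throughout and Gm42337 was not analysed here. Zbtb17, which encodes a zinc finger partner of Myc, had 24.77, 28.46 and 27.05 TPM in LPS+Pilo, 24.62, 20.92 and 25.33 TPM in LPS and 24.68, 26.54 and 27.24 TPM in Control. Its groups overlapped, and it did not pass for LPS+Pilo with LPS (0.18 ± 0.11, limma adjusted p = 0.821), LPS with Control (-0.14 ± 0.11, adjusted p = 0.459) or LPS+Pilo with Control (0.03 ± 0.11, adjusted p = 0.897).

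The genes whose levels ran most like Hspb7 were ranked by Pearson correlation of log2(TPM + 1) over the 9 libraries among 7393 candidates whose mean reached 5 TPM in a group. The 9 points share 3 groups, so the measure mostly reflects the group means. The first 5 were Bmyc (r = 0.987), a Myc relative, Ier5l (0.986), Trem2 (0.984), Gpr183 (0.981) and Plau (0.978). Trem2, which encodes the lipid-sensing receptor of microglia, averaged 239.5 ± 36.1 TPM in LPS+Pilo, 333 ± 37.3 TPM in LPS and 591 ± 1.96 TPM in Control (SD, n = 3 each). The LPS+Pilo means were 45.9% of Control for Bmyc, 33.1% for Ier5l, 40.5% for Trem2, 11.4% for the oxysterol receptor gene Gpr183 and 42.8% for Plau, against 23.2% for Hspb7. The LPS means were 63.1%, 52.3%, 56.3%, 24.1% and 68.0% of Control in the same order of genes, against 42.1% for Hspb7.

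Sixth in that ranking was Fblim1 (r = 0.977), named here after its values were seen. It encodes migfilin, an adaptor that binds filamin at cell adhesions, and it is the fifth protein-coding gene on the Zbtb17 side of Hspb7. Fblim1 had 31.02, 28.07 and 27.41 TPM in LPS+Pilo, 40.45, 41.47 and 42.40 TPM in LPS and 77.46, 63.23 and 68.11 TPM in Control. These groups did not overlap, in an order found in 1.36% of tested genes. Fblim1 was taken from a ranking by likeness to Hspb7, so this order is no separate support. The LPS+Pilo mean was 69.6% of the LPS mean and the LPS mean 59.5% of the Control mean. Zbtb17, which lies between Hspb7 and Fblim1, showed no such order. Spen, also between them, lay at 4.59 to 8.68 TPM over all libraries and was not compared by group here.

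**Figure D4:**
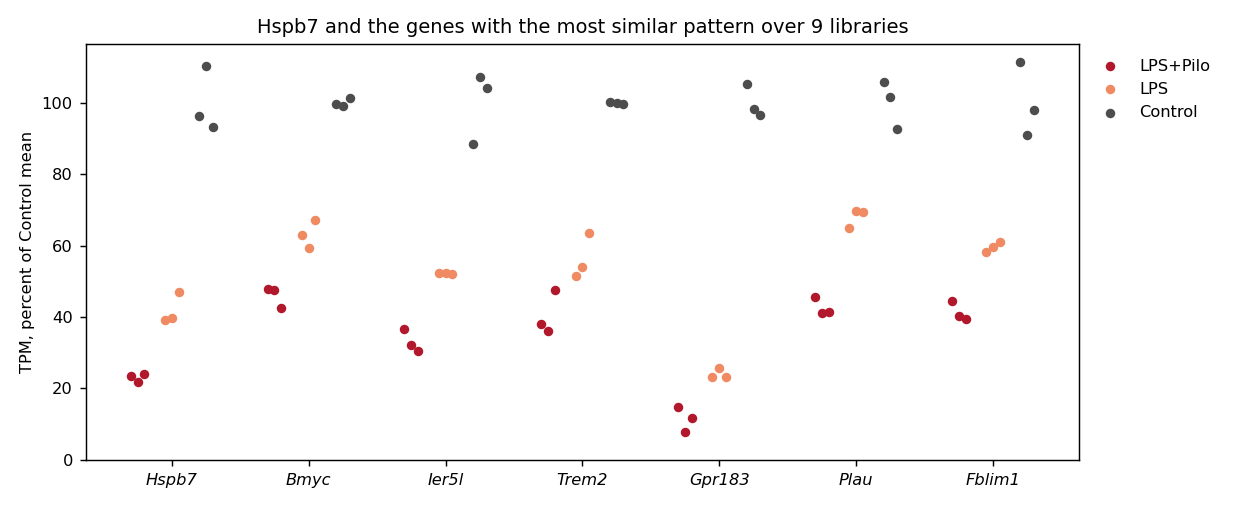
TPM as a percent of the Control mean (vertical axis) for Hspb7, the 5 genes most correlated with it and Fblim1. Points are libraries of LPS+Pilo, LPS and Control. In each gene the LPS+Pilo points lie below the LPS points and the LPS points below the Control points. The other genes were picked for likeness to Hspb7, so their shared order is no separate support.

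Markers of muscle, where Hspb7 is best known, were at or near 0. Of 11 muscle markers Myh6, Myh7, Actc1, Ttn and Myod1 were listed at 0 in all libraries and 8 stayed under 0.5 TPM, and the list summed to 1.87 to 2.32 TPM in LPS+Pilo, 2.25 to 3.49 TPM in LPS and 2.36 to 4.16 TPM in Control. Myl2, the only muscle marker tested, averaged 1.33 TPM in LPS+Pilo, 1.67 TPM in LPS and 2.58 TPM in Control, the same order of groups as Hspb7. It did not pass in any comparison (limma adjusted p = 0.126 for LPS+Pilo with Control, without overlap, as for 15.6% of tested genes). Tnnt2 reached at most 1.12 TPM. Hspb7 alone was at least 44.14 TPM in every library. The 5 astrocyte markers and the 6 endothelial and fibroblast markers stayed under 0.5 TPM. Of 5 neuronal markers 4 were listed at 0. The other, Tubb3, was at 382.86 to 456.74 TPM in LPS+Pilo, 306.32 to 402.74 TPM in LPS and 164.04 to 367.03 TPM in Control. Tubb3 did not pass in any comparison (limma adjusted p = 0.108 for LPS+Pilo with Control, without overlap, as for 14.9% of tested genes). Of 5 oligodendrocyte markers only Mbp was tested. The 11 microglial markers summed to 2811 to 2871 TPM in LPS+Pilo, 3000 to 3102 TPM in LPS and 3417 to 3520 TPM in Control, with Cd68, Tyrobp, Fcer1g and Spi1 making up most of the sum. P2ry12 reached at most 0.4 TPM and Aif1 at most 1.36 TPM. The marker sum was thus in the same order of groups as Hspb7, but single markers were not all in that order. Of 10 tested 1 was called higher and 1 lower in LPS than in Control, against 4.12% and 3.64% of all tested genes. In LPS+Pilo 1 was called higher and 3 lower than in Control, against 4.85% and 5.3%. Between LPS+Pilo and LPS 0 were called, against 0.0444%. Tyrobp averaged 691 TPM in LPS+Pilo, 839 TPM in LPS and 1192 TPM in Control, and was called lower in both comparisons with Control. Itgam, which encodes an integrin, was called higher in LPS (1.58, limma adjusted p = 0.00608) and in LPS+Pilo (1.42, adjusted p = 0.00822) than in Control. The part of these markers in the Hspb7 values was not tested. In bulk RNA, fewer cells expressing a gene and less RNA of it per cell cannot be told apart.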

How the data were processed

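RNA sequencing measured 9 libraries of BV2 cells. The authors deposited 1 table of TPM with 55906 genes, rounded to 2 decimals. Tools named in the submitters' processing notes are STAR 2.7.1a, fastp 0.19.5 and DESeq2 1.24.0, with build GRCm39. Which program made the TPM, with what annotation and strand setting, is not given in the sources used here. TPM hold no counts, so depth is unknown and no counting interval is given.

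From these TPM, symbols were assigned by Ensembl identifier from GENCODE M21 (52081 matched), without its coordinates. Tests used log2(TPM + 1), a scale that understates changes of low genes. A limma model (version 3.58.1, R 4.3.3) was fitted to all 9 libraries with a mean for each group, a variance trend and 6 residual degrees of freedom, after a check on simulated data. Tests were two-sided, with Benjamini-Hochberg adjustment over 11260 genes. Promoters came from RefSeq, GRCm38.p6.

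The members, lists and tests were chosen with earlier results of these data known. Named were all members, called list genes, heat shock factors, other family genes, the 3 neighbours on either side of Hspb7 and the 5 genes most correlated with it. List genes that passed only in an alternative setting were named after their values were seen. So were Hspa8, Ift27, Map1lc3b, Flna, Flnc, Hspa1a, Hspa1b, Spen, Fblim1, Igf1, Myo1f and single marker and check genes. Some genes under these rules are not reported here. Alternatives were 8 other settings and leaving out each of the 9 libraries.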

Additional observations from a re-analysis of the deposited data

How the results depend on the processing

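Hspb7 kept its direction and moved by less than its residual SD in all 17 settings of each comparison, and no other member was called in any. For Hspb7 this is a description, since the settings reuse the libraries in which it was chosen. All-gene counts moved more. For LPS with Control 874 genes became 1389 with median centring, 1516 with quantile normalization and 486 with only the 2 groups compared, and 414 to 1020 when 1 library was left out. For LPS+Pilo with LPS 5 became 0 with median centring, 1 with quantile normalization, 1 with no filter, 3 with only the 2 groups compared, 3 with no variance trend, and 0 to 6 without 1 library. For LPS+Pilo with Control 1143 became 1726 with quantile normalization and 642 to 1286 without 1 library. The cause was not tested, beyond the fewer samples or other genes of each setting.

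Signs turned only in differences that passed nowhere. For LPS with Control, Hspb11 was at -0.11 with median centring, -0.10 with quantile normalization and -0.08 to 0.12 without 1 library, and Bag3 at -0.18 to 0.11 without 1 library. For LPS+Pilo with LPS, Bag3 ranged from -0.28 to 0.01 and Hsf4 from -0.03 to 0.07 without 1 library.

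Replicate numbers pair no samples by the labels. Deviations of same-numbered libraries correlated at -0.225 to 0.165, and the highest correlation, 0.300, joined LPS replicate 3 with Control replicate 2. With a replicate block 808 genes passed for LPS with Control, 1 for LPS+Pilo with LPS and 1064 for LPS+Pilo with Control. The settings for list genes were applied after seeing the data. Without counts, the depth behind low levels and listed zeros is unknown.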
